A study of Mus musculus with 8 samples.

Results

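The 10 genes of the NRF2 antioxidant response were followed through every library of the study: Nfe2l2, Keap1, Hmox1, Nqo1, Gclm, Gclc, Slc7a11, Txnrd1, Srxn1 and Prdx1. They were chosen by symbol, with earlier results of these data known, and all 10 were found among the 24421 gene symbols counted in each library. All 10 also passed the filter on low counts, which left 13821 genes for testing. The study sequenced RNA of primary macrophages from mice on a normal diet, in 8 libraries: 3 from wild-type mice (WT), 3 labelled LysM-DKO and 2 labelled ABCG1KO. The study asked how epsins, adaptor proteins of clathrin-mediated endocytosis, bear on lipid metabolism and on the export of cholesterol through the transporter ABCG1. The name LysM-DKO was read as the epsin double knockout of the study's design text. LysM names the lysozyme gene Lyz2, whose promoter drives Cre recombinase in macrophages and in other myeloid cells, and the alleles, strain, age and sex of the mice and the tissue of origin are not given in the sources used here. The labels do not say whether the libraries of a group came from separate animals, so p-values measure only the spread between these libraries, and how much of it is technical is not known.

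NRF2, the product of Nfe2l2, is a transcription factor that is held at a low level because KEAP1 delivers it to a ubiquitin ligase for degradation. Oxidants and electrophiles modify KEAP1, NRF2 then accumulates, pairs with a small MAF protein and binds antioxidant response elements at its target genes. The targets followed here supply cystine and glutathione (Slc7a11, Gclc, Gclm), run the thioredoxin and peroxiredoxin system (Txnrd1, Srxn1, Prdx1), break down heme (Hmox1) and reduce quinones (Nqo1). In macrophages the pathway is known for protection against oxidised lipids and heme. NRF2 is regulated mainly at the level of the protein, which RNA counts do not measure.

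The promoters of 4 members whose transcripts differed between groups are shown because NRF2 acts through a short motif in such sequence. Each window is RefSeq sequence of GRCm38.p6, the build called mm10 in the submitters' notes, read on the gene's own strand from 250 bases before the annotated start of the transcript to 50 bases after it. Capitals mark TGACNNNGC, the core of the antioxidant response element, where it was found on either strand, so that a match on the opposite strand appears as its reverse complement.
Gclm, chr3:122245307-122245606, plus strand: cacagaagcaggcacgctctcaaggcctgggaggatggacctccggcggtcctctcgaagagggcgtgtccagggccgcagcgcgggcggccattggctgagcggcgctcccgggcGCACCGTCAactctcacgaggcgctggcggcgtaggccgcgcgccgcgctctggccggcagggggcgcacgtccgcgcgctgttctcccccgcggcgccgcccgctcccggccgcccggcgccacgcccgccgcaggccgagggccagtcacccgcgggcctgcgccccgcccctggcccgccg
Txnrd1, second annotated start, chr10:82858956-82859255, plus strand: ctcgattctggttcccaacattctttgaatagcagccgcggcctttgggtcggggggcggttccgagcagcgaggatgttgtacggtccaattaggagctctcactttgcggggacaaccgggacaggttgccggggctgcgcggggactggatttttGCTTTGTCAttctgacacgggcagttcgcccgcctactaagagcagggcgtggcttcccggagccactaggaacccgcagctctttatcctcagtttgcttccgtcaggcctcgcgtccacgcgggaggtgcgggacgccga
Prdx1, chr4:116685349-116685648, plus strand: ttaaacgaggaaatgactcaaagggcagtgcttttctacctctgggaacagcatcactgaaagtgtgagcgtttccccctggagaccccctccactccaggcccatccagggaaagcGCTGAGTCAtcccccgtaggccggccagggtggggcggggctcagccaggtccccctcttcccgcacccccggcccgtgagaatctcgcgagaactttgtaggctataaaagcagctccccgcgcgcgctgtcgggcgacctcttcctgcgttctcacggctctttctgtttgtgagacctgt
Slc7a11, chr3:50443564-50443863, minus strand, no match: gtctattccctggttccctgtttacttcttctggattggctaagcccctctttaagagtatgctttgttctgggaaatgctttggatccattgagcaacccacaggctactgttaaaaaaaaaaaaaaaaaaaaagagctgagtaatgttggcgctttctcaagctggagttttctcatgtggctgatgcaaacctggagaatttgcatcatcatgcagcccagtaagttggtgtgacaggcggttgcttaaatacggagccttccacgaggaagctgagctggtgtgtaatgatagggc
The RefSeq table held 8 of the 10 members, all but Hmox1 and Gclc, in 10 windows. The core was found in 5 of the 8 genes, namely Nfe2l2, Gclm, Txnrd1, Srxn1 and Prdx1, and in 5 of the 10 windows. Across the table, 12.4% of 32851 windows and 14% of 27025 genes held it. The match began 134 bases before the start in Gclm, 92 bases before it in Txnrd1 and 133 bases before it in Prdx1, each on the opposite strand. The Prdx1 match also contains TGACTCA, the letters of an AP-1 site. No match was found in the windows of Slc7a11, Keap1 and Nqo1, which says only that these letters are not in those windows. The matches describe the sequence and are not evidence of binding.

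Counts in genes ranged from 29567615 to 41888516 per library. The libraries labelled ABCG1KO had lower Abcg1 than WT, at 60.4 and 73.4 CPM (counts scaled to a common library size) against 345 to 405, with a log2 fold change of -2.52 (SE 0.372, adjusted p = 0.00414 by edgeR's quasi-likelihood test). The label LysM-DKO was not borne out in the same way. Epn1 stood at 154 to 183 CPM in those libraries against 191 to 230 in WT (log2 fold change -0.30, adjusted p = 0.430 by the same test). Epn1 also differed by -0.30 between ABCG1KO and WT. The ranges of Epn2 overlapped between LysM-DKO and WT, so these are called the libraries labelled LysM-DKO here. Lyz2, the gene that LysM names, stood at 6176 to 8104 CPM in them and at 13002 to 15707 in WT, with no overlap (log2 fold change -1.09, adjusted p = 0.173 by edgeR's test), which was not called. Sex-linked transcripts (Xist and 4 Y-linked genes) followed a female pattern in all 3 WT libraries and in LysM-DKO 2 and 3, and a male pattern in LysM-DKO 1 and both ABCG1KO libraries, so between ABCG1KO and WT genotype cannot be told apart from sex. The libraries labelled LysM-DKO show both patterns and so did not all come from 1 animal. Counts of libraries of the same group differed by more than counting noise, with a chi-square of 92.7 to 169 per degree of freedom. All 10 macrophage markers were detected in every group. Their sum, to which Lyz2 gave the largest part, was 20463 to 23557 CPM in WT. It was lower in all LysM-DKO libraries, at 14054 to 18344, and stood at 23414 to 26193 in ABCG1KO. Single markers went both ways in ABCG1KO, with mean Csf1r at 2853 CPM against 1250 in WT and mean Cd68 at 1143 against 2376. Reads aligned to several places made up 2.65% to 3.01% of a library in WT and LysM-DKO but 6.74% and 6.93% in ABCG1KO, and reads outside annotated genes 4.26% to 6.07% against 10.2% and 13.8%. In both comparisons with ABCG1KO, genotype therefore cannot be told apart from these differences between libraries. Markers of several other cells or states were also higher in ABCG1KO, summed over each list: peritoneal macrophage (6 of 6 detected) at 716 to 1089 CPM against 53.8 to 426 in WT and 36.3 to 222 in LysM-DKO, monocyte (4 of 4) at 43.3 to 155 against 1.53 to 10.99 and 2.62 to 4.10, mast cell (6 of 6) at 7.95 to 47.2 against 0.181 to 3.15 and 0.121 to 0.536, and dendritic cell (5 of 5) at 12.2 to 12.6 against 0.854 to 2.68 and 0.606 to 2.15. A single gene gave most of the peritoneal and of the monocyte sum in ABCG1KO, Cd5l at 577 to 1029 CPM and Ccr2 at 40.2 to 127. The dendritic sum there was mainly Cd209a (5.20 to 9.55 CPM) and Zbtb46 (2.62 to 5.20), and 3 of its 5 genes had a mean under 1 CPM. Among these 3, Xcr1 was lower in ABCG1KO (mean 0.0275 CPM) than in WT (0.0926) and LysM-DKO (0.115). The summed level of 8 neutrophil markers, 207 to 354 CPM in ABCG1KO against 88.3 to 134 in WT and 62.6 to 86.5 in LysM-DKO, was nearly all Csf3r (204 to 348 CPM in ABCG1KO), and 6 of the 8 were under 1 CPM in every library, with Retnlg at 0. In no other list were both ABCG1KO libraries above every WT and every LysM-DKO library. Fibroblast markers summed to 160 and 1185 CPM in ABCG1KO 1 and 2, against 754 to 913 in WT and 678 to 1663 in LysM-DKO. Mesothelial markers stood at 4.30 and 17.5 against 6.49 to 37.0 and 4.26 to 50.2. B cell markers stood at 15.2 and 2.66 against 2.51 to 30.6 and 0.0242 to 1.41, and T cell markers at 1.88 and 3.58 against 2.26 to 5.36 and 1.77 to 6.65. The part of these other transcripts in the results below was not tested.

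Per kilobase of annotated exon, the 10 transcripts spanned about 3 orders of magnitude in WT. Prdx1 was highest, at 1078 ± 259 CPM per kb (SD, n = 3), followed by Hmox1 at 316 ± 87.2, Nfe2l2 at 139 ± 10.3, Srxn1 at 75.9 ± 6.24 and Txnrd1 at 39.0 ± 5.72. Keap1 at 14.9 ± 1.04, Gclc at 12.1 ± 2.81 and Gclm at 9.60 ± 2.34 followed, and the range of each of these overlapped that of its neighbour. Nqo1 at 1.28 ± 0.425 and Slc7a11 at 0.971 ± 0.237 were lowest and also overlapped. The LysM-DKO libraries kept Prdx1 and Hmox1 as the highest and Nqo1 and Slc7a11 as the lowest. In ABCG1KO the order at the top changed: Hmox1 led at 664 ± 133 CPM per kb (SD, n = 2), ahead of Prdx1 at 216 ± 4.33 and Txnrd1 at 100 ± 9.22, and Slc7a11 at 4.82 ± 0.379 stood above Nqo1 at 3.38 ± 0.990. Prdx1 alone gave 59.6% to 67.8% of the members' counts in WT, 40.5% to 56.1% in LysM-DKO and 18.8% to 18.9% in ABCG1KO. The other 9 members together stood at 1653 to 1901 CPM in WT, 1663 to 1690 in LysM-DKO and 2791 to 2856 in ABCG1KO.

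**Figure D1:**
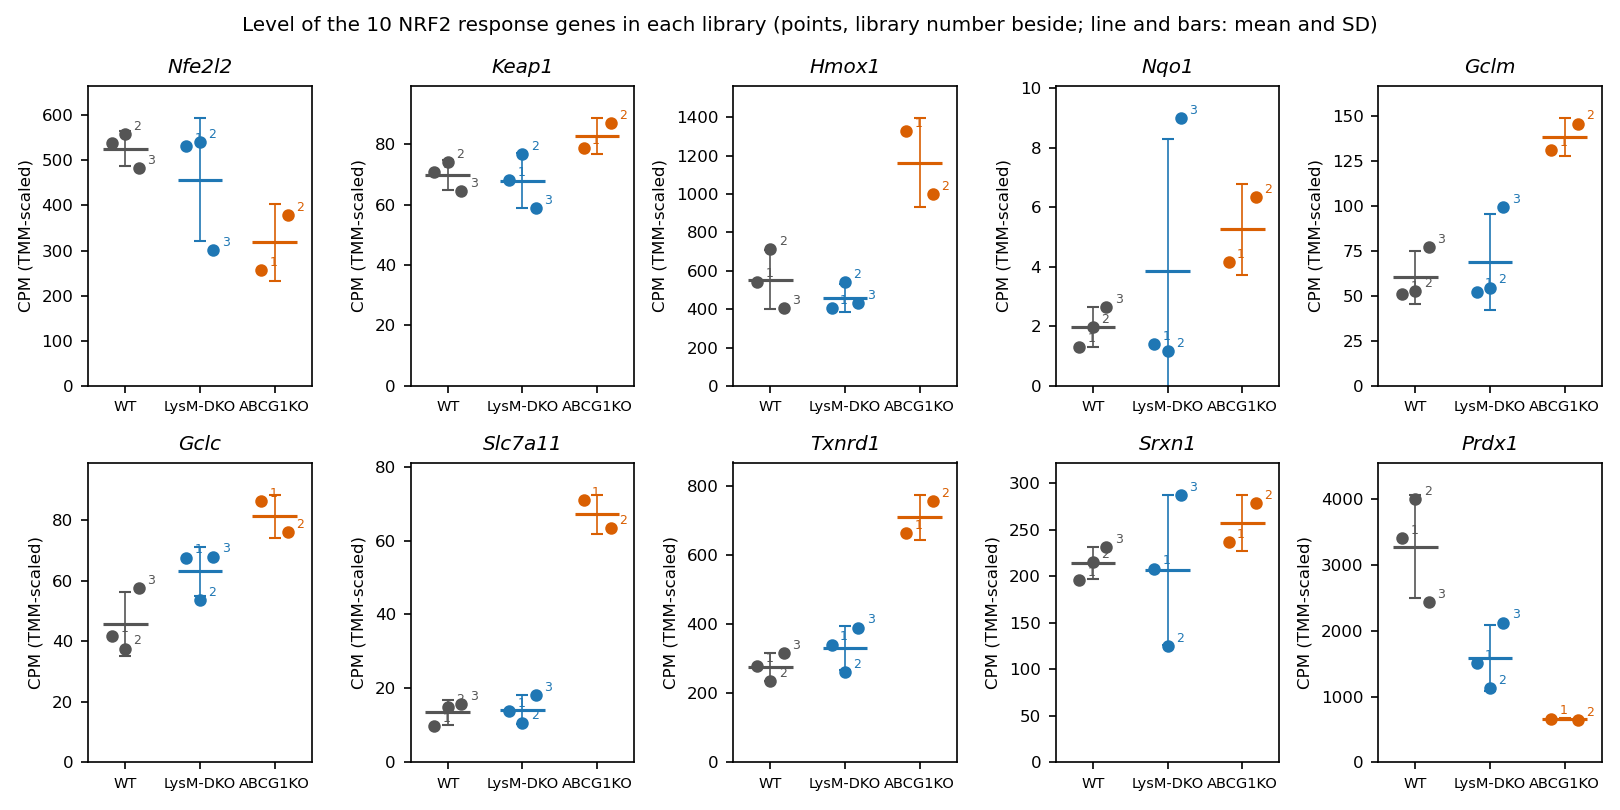
Level of each of the 10 genes in CPM, the counts scaled to a common library size with TMM factors (vertical axis, linear from 0, a different range in each panel) in the 3 WT, 3 LysM-DKO and 2 ABCG1KO libraries; points are libraries with their number, long lines are group means and error bars are SD, and the lower bar of Nqo1 in LysM-DKO runs below the axis. Both ABCG1KO libraries lie above all WT libraries for Slc7a11 (63.4 and 70.9 against 9.73 to 15.8 CPM) and below all of them for Prdx1, while LysM-DKO 3 stands apart for Nqo1 at 8.995 CPM.

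Between ABCG1KO and WT, the glutathione supply genes, thioredoxin reductase and heme oxygenase were higher in ABCG1KO while Prdx1 was lower. Slc7a11 was 4.96-fold higher, Txnrd1 2.57-fold, Gclm 2.29-fold, Hmox1 2.10-fold and Gclc 1.78-fold, and Prdx1 was 4.998-fold lower. These 6 of 10 members were called, meaning an adjusted p under 0.05 in edgeR's quasi-likelihood test with Benjamini-Hochberg adjustment over all 13821 genes, against 16.0% of all genes tested. Of the 10, 5 were called higher, against 7.21% of all genes, and 1 lower, against 8.83%. The groups did not overlap for any of the 10 members, 8 higher and 2 lower, but 48.2% of all genes were also free of overlap in this comparison of 2 libraries with 3, 23.9% higher and 24.2% lower. The median log2 fold change of the members was 0.95, beside 0.01 over all genes. In bulk RNA, fewer cells of a type and less RNA per cell cannot be told apart.

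No member was called between the libraries labelled LysM-DKO and WT, where 0.0362% of all genes were called (5 of 13821), 0.0217% higher and 0.0145% lower. The median log2 fold change of the members was 0.02, the same as over all genes at this rounding. The ranges of both groups overlapped for every member but Prdx1, which was lower in all 3 LysM-DKO libraries; 21.0% of all genes were free of overlap, 11.0% higher and 9.98% lower. At an unadjusted p under 0.05, 2 members stood out in the edgeR test, Prdx1 and Gclc, against 1611 of all 13821 genes. DESeq2 called 1 member, Prdx1, and 299 genes in all.

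The libraries labelled LysM-DKO and ABCG1KO differed in 4 members, against 13.4% of all genes called. Slc7a11, Hmox1 and Txnrd1 were lower in LysM-DKO, against 5.64% of all genes, and Prdx1 was higher, against 7.76%. The groups did not overlap for 7 members, 1 higher and 6 lower, against 48.2% of all genes, 25.6% higher and 22.6% lower. Since both groups were set against the same WT libraries, this direct comparison is also the test of whether the 2 differences from WT differ from each other.

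**Figure D2:**
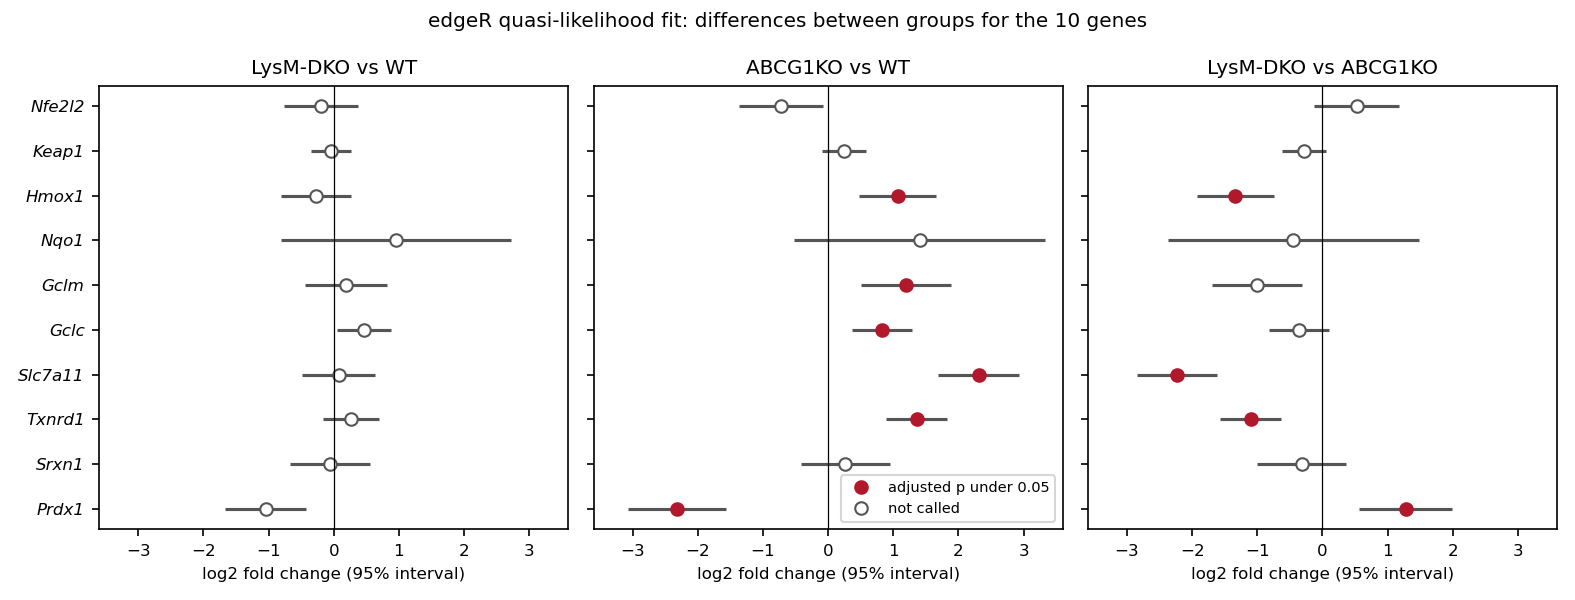
Log2 fold change of each of the 10 genes (horizontal axis) with its 95% interval in the 3 comparisons, from 1 edgeR quasi-likelihood fit of all 8 libraries; filled red points have an adjusted p under 0.05. Against WT, 6 genes are filled for ABCG1KO and none for LysM-DKO, and 4 are filled where the 2 are compared directly.

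Among the regulators, Nfe2l2, which encodes NRF2 itself, stood at 538, 558 and 482 CPM in WT 1, 2 and 3, at 532, 540 and 300 in LysM-DKO, and at 258 and 379 in ABCG1KO. LysM-DKO 3 was the only library of its group below the WT range, and both ABCG1KO libraries were below it. The log2 fold change of ABCG1KO against WT was -0.72 (95% interval -1.37 to -0.07, adjusted p = 0.122 by edgeR's quasi-likelihood test), which was not called. For LysM-DKO it was -0.20 (interval -0.77 to 0.37). Keap1, the inhibitor, stood at 70.8, 74.1 and 64.5 CPM in WT, 68.2, 76.7 and 58.8 in LysM-DKO, and 78.6 and 86.9 in ABCG1KO. Its levels were the most even of the 10, and its log2 fold changes of 0.25 in ABCG1KO (interval -0.09 to 0.58) and -0.04 in LysM-DKO (interval -0.34 to 0.26) were not called. Part of the Keap1 transcript, 7.78% of its 50-base stretches, is shared with the antisense gene Gm16754, and the strand setting of the counting is not given in the sources used here.

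Slc7a11 encodes the subunit of the cystine-glutamate antiporter that brings in cystine for glutathione. It stood at 9.73, 15.05 and 15.8 CPM in WT, at 13.9, 10.6 and 18.3 in LysM-DKO, and at 70.9 and 63.4 in ABCG1KO. Both ABCG1KO libraries lay far above the other 6, whose ranges overlapped. The log2 fold change was 2.31 against WT (SE 0.271, adjusted p = 0.00130 by edgeR's quasi-likelihood test) and that of LysM-DKO against ABCG1KO was -2.23 (SE 0.271, adjusted p = 0.00177). Both calls held under every alternative in which the gene was fitted, with 2.12 to 2.44 against WT when any 1 library was left out.

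Gclc and Gclm encode the catalytic and the modifier subunit of glutamate-cysteine ligase, the enzyme of the rate-limiting step of glutathione synthesis. Gclc stood at 41.6, 37.5 and 57.5 CPM in WT, 67.6, 53.7 and 67.9 in LysM-DKO, and 86.3 and 76.1 in ABCG1KO. The ABCG1KO libraries were highest and LysM-DKO 2 fell within the WT range. Its log2 fold change was 0.83 in ABCG1KO against WT (SE 0.201, adjusted p = 0.0280 by edgeR's quasi-likelihood test) and 0.47 in LysM-DKO against WT (SE 0.183, adjusted p = 0.398), which was not called. Gclm stood at 51.0, 52.9 and 77.3 CPM in WT, 52.5, 54.7 and 99.6 in LysM-DKO, and 131 and 146 in ABCG1KO. WT 3 and LysM-DKO 3 were the high libraries of their groups, and both were below ABCG1KO. The log2 fold change was 1.20 in ABCG1KO against WT (SE 0.300, adjusted p = 0.0319) and 0.19 in LysM-DKO against WT (95% interval -0.43 to 0.81). Between LysM-DKO and ABCG1KO, Gclm differed by -1.01 on the log2 scale (adjusted p = 0.0607), just outside the threshold, and by -1.37 without LysM-DKO 3 (adjusted p = 0.0136, both by edgeR). The calls of Gclc and Gclm against WT were both lost without WT 1, WT 2, ABCG1KO 1 or ABCG1KO 2, at log2 fold changes of 0.77, 0.71, 0.73 and 0.91 for Gclc and 1.09, 1.11, 1.26 and 1.11 for Gclm. Gclc was also not called with both groups fitted alone (0.83, adjusted p = 0.0534 by edgeR).

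Txnrd1 encodes the cytosolic thioredoxin reductase, which passes electrons from NADPH to thioredoxin. It stood at 278, 235 and 316 CPM in WT, 341, 262 and 390 in LysM-DKO, and 664 and 756 in ABCG1KO. The WT and LysM-DKO ranges overlapped and both ABCG1KO libraries were above them. Its log2 fold change was 1.36 in ABCG1KO against WT (SE 0.205, adjusted p = 0.00451 by edgeR's quasi-likelihood test) and -1.10 in LysM-DKO against ABCG1KO (SE 0.205, adjusted p = 0.0126), and both calls held under every alternative. Against WT the libraries labelled LysM-DKO differed by 0.26 (95% interval -0.16 to 0.69), which was not called. No 50-base stretch of Txnrd1 is shared with another annotated gene.

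Srxn1 encodes sulfiredoxin, which restores overoxidised peroxiredoxins. It stood at 196, 216 and 231 CPM in WT, 208, 125 and 287 in LysM-DKO, and 236 and 279 in ABCG1KO. The LysM-DKO libraries were the most spread of the 3 groups and enclosed the WT range. The log2 fold changes against WT were 0.27 in ABCG1KO (95% interval -0.42 to 0.95) and -0.05 in LysM-DKO (interval -0.66 to 0.56), and neither was called.

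Prdx1 encodes a cytosolic peroxiredoxin that reduces hydrogen peroxide with electrons from thioredoxin, and it was the only member called lower in ABCG1KO. Its levels were 3405, 3999 and 2436 CPM in WT, 1507, 1133 and 2124 in LysM-DKO, and 666 and 647 in ABCG1KO. The 3 groups did not overlap, with ABCG1KO lowest, LysM-DKO between and WT highest. The log2 fold change was -2.32 in ABCG1KO against WT (SE 0.327, adjusted p = 0.00340 by edgeR's quasi-likelihood test), a call that held under every alternative in which the gene was fitted. In LysM-DKO against WT it was -1.05 (SE 0.270, adjusted p = 0.311 by edgeR), which was not called, while DESeq2 gave -1.07 with an adjusted p of 0.00938. In LysM-DKO against ABCG1KO it was 1.27 (SE 0.311, adjusted p = 0.0337), a call lost without WT 1, WT 2, LysM-DKO 1, LysM-DKO 3, ABCG1KO 1 or ABCG1KO 2 and with both groups fitted alone, at 1.01 to 1.29 on the log2 scale. Prdx1 shares 8.81% of its 50-base stretches with transcripts of 75 other annotated genes, 5 of them pseudogenes, and this percentage is the highest of any member. Counts of such genes depend on how reads with several alignments were treated, and the share of these reads differed between ABCG1KO and the other groups as given above. Whether this contributed to the lower Prdx1 counts was not tested.

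Hmox1 encodes heme oxygenase 1, which breaks heme down to biliverdin, iron and carbon monoxide. It stood at 543, 711 and 407 CPM in WT, 405, 541 and 432 in LysM-DKO, and 1327 and 999 in ABCG1KO. Both ABCG1KO libraries were above the other 6, and the WT and LysM-DKO ranges overlapped. The log2 fold change was 1.07 in ABCG1KO against WT (SE 0.258, adjusted p = 0.0277 by edgeR's quasi-likelihood test) and -1.34 in LysM-DKO against ABCG1KO (SE 0.258, adjusted p = 0.0144). Without ABCG1KO 1, the highest library, both calls were lost, at 0.84 (adjusted p = 0.146) and -1.13 (adjusted p = 0.0923) in edgeR. The call against WT was also lost without WT 1 at 1.06 (adjusted p = 0.0764), without WT 3 at 0.89 (adjusted p = 0.0655) and with both groups fitted alone at 1.07 (adjusted p = 0.0534), all by edgeR. Against WT the libraries labelled LysM-DKO differed by -0.27 (95% interval -0.81 to 0.27).

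Nqo1, the quinone reductase often used as an NRF2 reporter gene, was among the lowest of the 10 per kilobase. It stood at 1.32, 1.99 and 2.64 CPM in WT, 1.41, 1.17 and 8.995 in LysM-DKO, and 4.17 and 6.34 in ABCG1KO, or 45 to 360 counts per library. ABCG1KO was above WT, and LysM-DKO 3 was above every other library with 7.69 times the level of LysM-DKO 2. Its log2 fold changes against WT, 1.41 in ABCG1KO (95% interval -0.52 to 3.33, adjusted p = 0.290 by edgeR's quasi-likelihood test) and 0.96 in LysM-DKO (interval -0.80 to 2.72), were not called, and the latter was -0.62 without LysM-DKO 3. Without LysM-DKO 3 the gene was called between LysM-DKO and ABCG1KO, at -2.03 (adjusted p = 0.0485 by edgeR) in place of -0.45. LysM-DKO 3 was the highest library of its group for 7 of the 10 members. It also had the highest summed level of fibroblast markers of the 8 libraries, 1663 CPM against 678 and 955 in LysM-DKO 1 and 2, and the lowest of macrophage markers, 14054 CPM against 16012 and 18344, and their part in its values was not tested.

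The 5 members called higher in ABCG1KO differ in shared sequence. Hmox1, Gclc and Txnrd1 share no 50-base stretch with another annotated gene. Slc7a11 shares 1.47% with transcripts of 571 other genes, 23 of them pseudogenes. Gclm shares 4.58% with transcripts of 146 other genes, 25 of them pseudogenes. The part of reads with several alignments in the counts of Slc7a11 and Gclm was not tested. In LysM-DKO 1, the LysM-DKO library with the male pattern, each of these 5 genes was below both ABCG1KO libraries and Prdx1 was above both. Its levels were 52.5 CPM for Gclm, 67.6 for Gclc, 341 for Txnrd1, 405 for Hmox1 and 13.9 for Slc7a11. Beside the WT libraries, LysM-DKO 1 was above their range for Gclc (37.5 to 57.5) and Txnrd1 (235 to 316) and within it for Gclm and Slc7a11. It was below that range for Hmox1 (407 to 711) and for Prdx1 (1507 against 2436 to 3999). LysM-DKO 1 is 1 library, with another genotype label than either group, and the part of sex in the differences was not tested. Scaling by library size alone, without TMM, moved the median over all genes to a log2 fold change of 0.25 for ABCG1KO and 0.17 for LysM-DKO against WT. It left the same 6 members called for ABCG1KO, at 1.06 to 2.54 for the 5 higher genes and -2.08 for Prdx1.

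A wider list of 84 genes around NRF2 was examined for context, of which 83 were tested. In ABCG1KO against WT, 19 of the 83 were called, against 16.0% of all genes, 8 higher (7.21% of all genes) and 11 lower (8.83%). The median log2 fold change was -0.06. DESeq2 called 31 of the 83, beside 3239 of all 13821 genes. With scaling by library size alone the split was 21 higher and 7 lower, and over all genes it moved from 996 higher and 1220 lower to 2074 and 856. Leaving out WT 1 gave 11 called wider genes beside 1372 of all genes, WT 2 gave 11 beside 1186 and WT 3 gave 12 beside 1318. Of the 28 wider genes named by rule for this comparison, 26 kept their direction under every alternative. Of the 17 of them that were called, 8 kept the call under every alternative. With any 1 library left out, log2 fold changes ran from 0.48 to 0.91 for Mafg, 0.43 to 1.25 for Prdx6 and 1.55 to 3.86 for Spic. No wider gene was called in LysM-DKO against WT, where 20 of 83 had an unadjusted p under 0.05 in edgeR, against 1611 of all 13821 genes. DESeq2 called 4 there, Slc3a2, Txn1, Idh1 and Fth1, beside 299 of all genes.

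Partners and regulators of NRF2 were called in 4 of 12 cases in ABCG1KO against WT, 3 higher and 1 lower, with a median of 0.39, beside the 16.0% of all genes called and a median of 0.01 over them. The small MAF genes Maff and Mafg, whose products pair with NRF2, rose by 2.03 (SE 0.438) and 0.72 (SE 0.186) on the log2 scale. Maff stood at 4.57, 3.45 and 4.32 CPM in WT and at 15.7 and 17.9 in ABCG1KO. Bach2, which encodes a repressor that competes for the same kind of element, rose by 1.75 (SE 0.361). Rbx1, a component of the KEAP1 ubiquitin ligase, fell by 0.69 on the log2 scale (SE 0.146).

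Of 21 tested genes of the glutathione list, the longest of the 7, 5 were called lower and 1 higher in ABCG1KO against WT, beside 8.83% and 7.21% of all genes, with a median of -0.14. Gpx4, which reduces lipid hydroperoxides, went from 372, 331 and 300 CPM in WT to 22.8 and 13.6 in ABCG1KO, a log2 fold change of -4.20 (SE 0.273). Gstm1 differed by -2.19 (SE 0.299), Gstm2 by -3.62 (SE 0.570) and Gstp1 by -1.15 (SE 0.258), all glutathione transferases. Gpx4 shares 34.7% of its 50-base stretches with other genes, Gstp1 33.7%, Gstm1 18.9% and Gstm2 5.65%. In LysM-DKO, Gpx4 stood at 289, 257 and 233 CPM. The part of reads with several alignments in these values was not tested. The other 2 called genes of the list fall outside the rule for naming genes and are named after their values were seen: Mgst3, a microsomal transferase, fell by 1.29 (SE 0.344) and Gsr, glutathione reductase, rose by 0.55 (SE 0.153), and neither has shared sequence.

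Thioredoxin and peroxiredoxin genes other than the members were called in 3 of 14 cases in ABCG1KO against WT, 1 higher and 2 lower, with a median of -0.12, beside the 16.0% of all genes. Prdx6 rose by a log2 fold change of 0.90 (SE 0.239), from 69.3 to 87.4 CPM in WT to 185 and 105 in ABCG1KO, so the peroxiredoxin family did not move in 1 direction. Prdx2 fell by 0.58 (SE 0.162) and Txnip, an inhibitor of thioredoxin, fell by 0.99 (SE 0.285). Prdx5, at 1.05 (SE 0.345), was not called. Sod2, the mitochondrial superoxide dismutase, was the only 1 of 4 superoxide and catalase genes called, at 1.95 (SE 0.221), and it shares 21.0% of its stretches. Sod1 at 0.10, Sod3 at 0.0034 and Cat at -0.53 were not called.

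Among 10 heme and iron genes, Ftl1, the ferritin light chain and a known NRF2 target, fell by 1.89 on the log2 scale (SE 0.250) in ABCG1KO, and it shares 58.4% of its stretches. Spic, a transcription factor of heme-handling macrophages, rose by 3.13 (SE 0.760) from 0.293 to 1.02 CPM in WT to 1.85 and 9.20. Fth1, the ferritin heavy chain, at -0.57 (SE 0.190) and Slc40a1, the iron exporter ferroportin, at -2.04 (SE 0.703) were not called. Of 16 detoxification and export genes, the exporter Abcc1 rose by 1.39 (SE 0.205), while Akr1b8 fell by 1.75 (SE 0.296) and Esd fell by 1.29 (SE 0.232). Aldh2, at 0.47 (SE 0.141), was not called. None of 6 NADPH supply genes was called, with Tkt at -0.61, G6pdx at -0.36, Pgd at 0.37 and Me1 at 0.75.

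**Figure D3:**
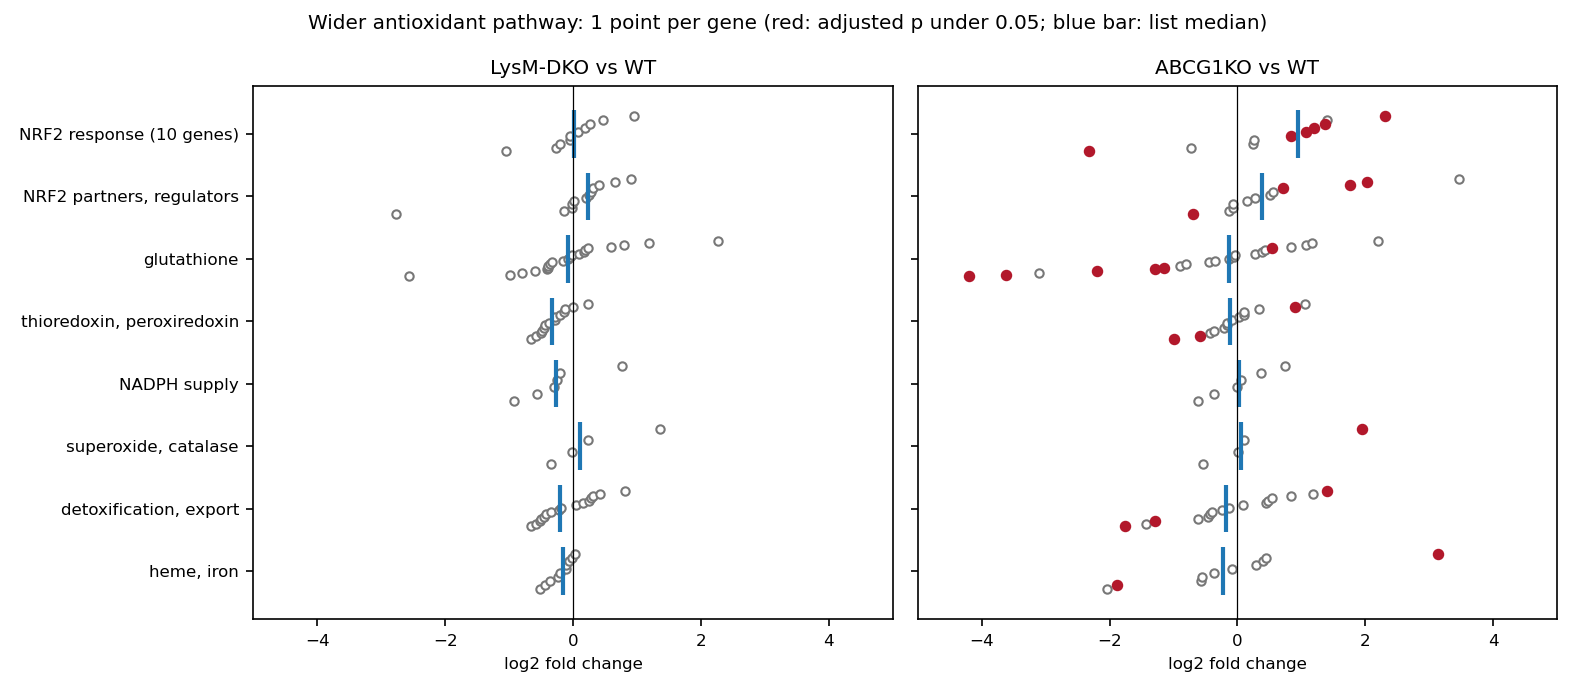
Log2 fold change (horizontal axis) of the 10 members and of each tested gene of the 7 wider lists, 1 point per gene, in LysM-DKO against WT and ABCG1KO against WT; filled red points have an adjusted p under 0.05 and blue bars are list medians. In ABCG1KO the members have a median of 0.95 and the glutathione list -0.14, and in LysM-DKO no point is filled.

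The calls in ABCG1KO were also counted by shared sequence, as a description. Of the members and wider genes with under 1% shared sequence, 8 of 53 were called in ABCG1KO against WT, 7 higher and 1 lower. Of those with 1% or more, 17 of 40 were called, 6 higher and 11 lower. Over all genes with a matched transcript, 559 were called higher and 462 lower of 7304 with at most 1%, and 399 higher and 710 lower of 6008 above it. With the fit restricted to genes with at most 1% shared sequence, an alternative added after the data were seen, 6 members were fitted and 3 called, Hmox1, Gclc and Txnrd1, all higher. Over the 7304 genes of that refit, 404 were called higher and 418 lower, so the excess of higher calls among genes with little shared sequence was not seen there.

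**Figure D4:**
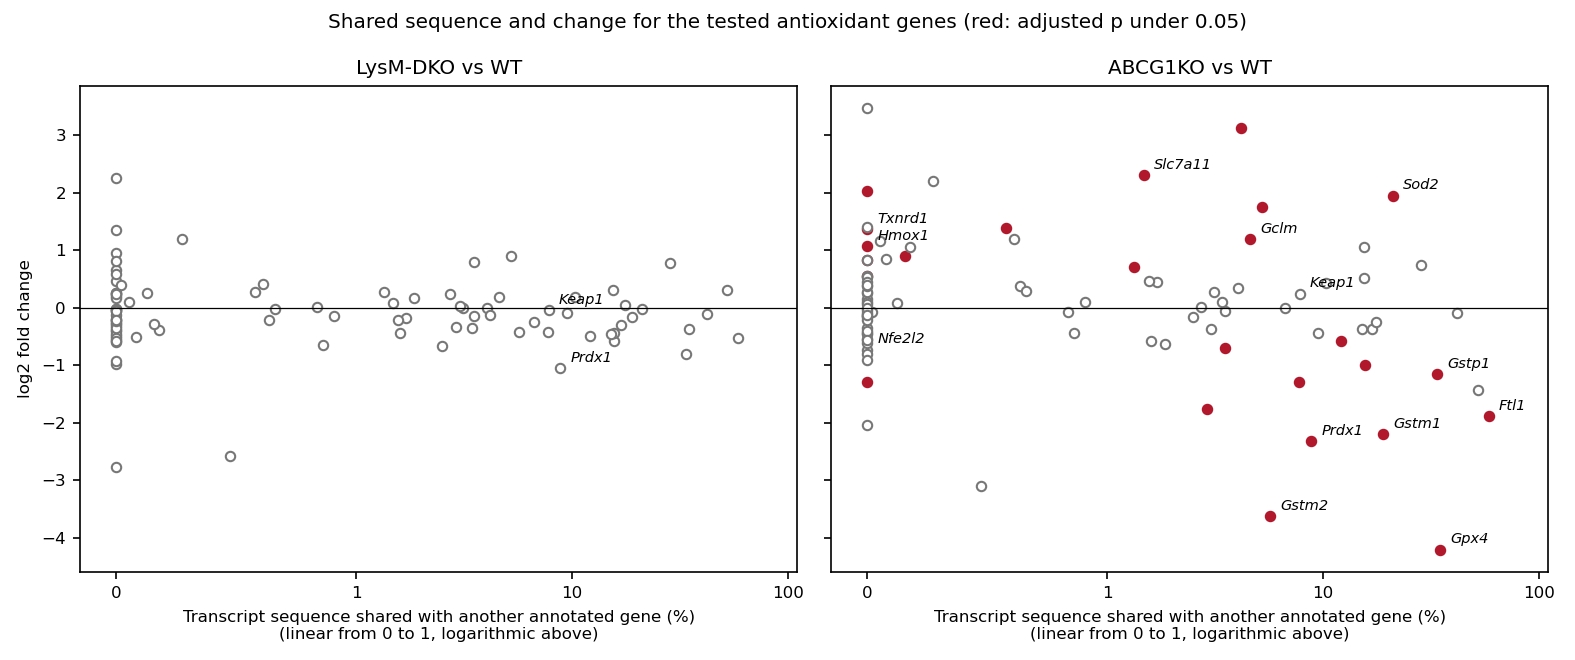
Log2 fold change (vertical axis) against the percentage of a gene's 50-base transcript stretches shared with another annotated gene (horizontal axis, linear from 0 to 1 and logarithmic above) for the 93 tested pathway genes in LysM-DKO and in ABCG1KO against WT; filled red points have an adjusted p under 0.05. In ABCG1KO 11 of the 12 genes called lower lie at 1% or more, Prdx1 among them at 8.81%.

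In LysM-DKO against WT no wider gene was called by edgeR, and those with the smallest p-values in each list are given as values. Slc3a2, the partner subunit of the SLC7A11 antiporter, stood at 323, 285 and 387 CPM in WT and at 627, 526 and 581 in LysM-DKO, 0.80 apart on the log2 scale (SE 0.168, adjusted p = 0.234). Idh1, an NADPH-forming enzyme, stood at 420, 432 and 397 CPM against 267, 184 and 208 (-0.92, SE 0.162, adjusted p = 0.160), and Txn1, thioredoxin, at 571, 517 and 482 against 344, 265 and 388 (-0.66, SE 0.184, adjusted p = 0.342). The groups did not overlap for these 3 genes, which was so for 29 of the 83 wider genes and 21.0% of all genes. Chac1, which degrades glutathione, differed by 2.26 (SE 0.671) at 0.205 to 0.497 CPM in WT and 1.02 to 2.17 in LysM-DKO. Gpx1 differed by -0.98 (SE 0.310) and Gstp1 by -0.81 (SE 0.223). Other values on the log2 scale were -0.49 for Prdx2 (SE 0.143), -0.58 for Txnip and -0.38 for Msrb1 in the thioredoxin list, and -0.56 for Tkt (SE 0.177), -0.29 for G6pdx and 0.77 for Me1 among the NADPH genes. Among regulators, Gsk3b, a kinase that marks NRF2 for degradation, was at 0.40 (SE 0.122), Bach2 at 0.91, Nfe2 at -2.76 and Cul3, the scaffold of the KEAP1 ligase, at 0.20. The superoxide and catalase genes were at 1.36 for Sod3, -0.35 for Sod1, 0.24 for Cat and -0.01 for Sod2. The detoxification genes were at 0.82 for Osgin1 (SE 0.230), -0.65 for Akr1a1, -0.52 for Abcc5 and -0.42 for Esd, and the heme and iron genes at -0.43 for Fth1, -0.52 for Ftl1, -0.35 for Blvra and -0.23 for Blvrb. Of the 14 thioredoxin and peroxiredoxin genes, 13 had a fold change below 0, with a median of -0.33, beside 6561 of 13821 genes below 0 and a median of 0.02 over all genes. This lean was not particular to that list. Below 0 were also 9 of 10 heme and iron genes and 5 of 6 NADPH genes, but only 4 of 12 regulators. Over all 83 wider genes 55 were below 0, with a median of -0.14.

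Directly between LysM-DKO and ABCG1KO, 22 of the 83 wider genes were called, against 13.4% of all genes, 9 higher in LysM-DKO (7.76% of all genes) and 13 lower (5.64%). On the log2 scale Gpx4 (3.84, SE 0.267), Gstm2 (3.21, SE 0.559), Gstm1 (2.04, SE 0.297), Akr1b8 (1.41, SE 0.291), Ftl1 (1.37, SE 0.245), Cbr1 (0.79, SE 0.189) and Rbx1 (0.55, SE 0.145) were called higher in LysM-DKO. Sod2 (-1.96, SE 0.221), Prdx5 (-1.49, SE 0.345), Prdx6 (-1.18, SE 0.239), Abcc1 (-1.12, SE 0.205), Idh1 (-0.98, SE 0.177), Gsr (-0.95, SE 0.153), Aldh2 (-0.68, SE 0.140), Blvrb (-0.68, SE 0.180) and Slc48a1 (-0.61, SE 0.169) were called lower. Spic (-3.25, SE 0.762) and Nfe2 (-6.24, SE 1.40), a relative of NRF2 in blood cells, were also called lower, with Nfe2 at 18.3 CPM in ABCG1KO 1, 0.707 in ABCG1KO 2 and only 0.0485 to 0.171 in LysM-DKO. Of these 18 calls, those of Gpx4, Gstm1, Gstm2, Sod2, Abcc1 and Idh1 held when any 1 library was left out. All the others but Spic and Slc48a1 were lost without ABCG1KO 1, where Nfe2 stood at -2.51 and Prdx5 at -0.72, and the calls of Spic, at -1.66, and Slc48a1, at -0.33, were lost without ABCG1KO 2. Not called were Pgd at -0.58, Taldo1 at -0.24, G6pdx at 0.07, Gsk3b at 0.48, Maff at -1.38, Sod3 at 1.36, Cat at 0.77, Sod1 at -0.44, Msrb1 at -0.48 and Txn1 at -0.49. The count was 8 without LysM-DKO 1, beside 943 of all genes, and 11 without LysM-DKO 2, beside 1005.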

How the data were processed

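Each library has 1 deposited table of whole-number counts by gene symbol, whose closing special lines are those of htseq-count. The submitters' processing notes name mm10, STAR 2.7.9a, TopHat, HTSeq 0.11.2, DESeq2 1.30.1 and limma with no role or order. The annotation, strand setting and treatment of reads with several alignments are not given in the sources used here. The 5 special lines entered neither library sizes nor tests.

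Counts were fitted with edgeR 4.0.16 in R 4.3.3 (filterByExpr, TMM, 1 quasi-likelihood fit of all 8 libraries with a term per group, no covariate, robust option on). The robust option was chosen after the same fit without it had been seen, to follow an earlier processing of these data, and the fit without it is an alternative. CPM are counts over the TMM-scaled library size, on the usual scale of that name. Intervals are 95% intervals of the fitted log2 fold change. The fit was tested on simulated data. DESeq2 1.42.0 and other scalings, filters and sets of libraries were alternatives.

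The members and all gene lists were chosen with earlier results of these data known. All members are named, and from each wider list the 4 genes with the smallest p in a comparison, with exceptions given where they stand. Shared sequence is the percentage of a gene's distinct 50-base transcript stretches found, on either strand, in another gene of GENCODE M21 (GRCm38); 95.72% of symbols matched. Promoters are from RefSeq.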

Additional observations from a re-analysis of the deposited data

How the results depend on the processing

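All 10 members kept the direction of their ABCG1KO to WT and LysM-DKO to ABCG1KO differences under every alternative. In LysM-DKO against WT, 6 members changed sign under at least 1 alternative. In that comparison DESeq2 called 299 genes, 1 member and 4 wider genes, the replicate block 0 genes, the fit without the robust option 3, genes with at most 1% shared sequence 1 and both groups alone 8. In ABCG1KO against WT the replicate block called 1456 genes, and genes with at most 1% shared sequence gave 822 genes, 3 members and 3 wider genes. DESeq2 called 3239 genes and 31 wider genes, and library size alone gave a members' median of 1.19. In LysM-DKO against ABCG1KO, DESeq2 called 2982 genes, the replicate block 1024 genes and 13 wider genes with a members' median of -0.88, genes with at most 1% shared sequence 614 genes, 2 members and 7 wider genes, and both groups alone 948 and 10. Leaving out 1 library at a time gave 853 to 2090 genes, 3 to 6 members, 10 to 19 wider genes and a median of 0.79 to 0.99 in ABCG1KO against WT. It gave 561 to 1960, 2 to 5, 8 to 20 and -0.93 to -0.33 in LysM-DKO against ABCG1KO, and 0 to 8 genes, 0 members and a median of -0.16 to 0.22 in LysM-DKO against WT. A group left with 1 library was assumed to vary like the others. Sign changes in LysM-DKO against WT were Keap1 at 0.11, Srxn1 at 0.10 and Sod2 at 0.14 with library size alone, and the leave-one-out ranges ran from -0.14 to 0.24 for Slc7a11, -0.11 to 0.054 for Sod2, -0.36 to 0.20 for Srxn1, -0.35 to 0.029 for Nfe2l2, -0.15 to 0.056 for Keap1, -0.62 to 1.38 for Nqo1 and -0.17 to 0.41 for Gclm. In ABCG1KO against WT, Sod3 was -0.0088 with no filter, -0.070 with the replicate block and -0.038 among genes with at most 1% shared sequence, with ranges of -0.51 to 0.37 for Sod3 and -0.20 to 0.38 for Sod1. In LysM-DKO against ABCG1KO, G6pdx was -0.019 with library size alone and ranged from -0.11 to 0.26. The cause of these differences was not tested. Whether the library numbers pair the samples is not given by the labels. Same-numbered WT and LysM-DKO libraries had correlations of 0.03, 0.48 and -0.05 of their deviations from the group means. Those with different numbers had -0.33 to 0.27, and so few libraries cannot decide the question. Under the replicate block the call of Hmox1 against WT (adjusted p = 0.0650) and that of Prdx1 between LysM-DKO and ABCG1KO (adjusted p = 0.103) were lost and Gclm was called in the latter (adjusted p = 0.00654), all by edgeR.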
